A study of Danio rerio with 48 samples.

Results

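Genes that build cholesterol and fatty acids were followed in the adult zebrafish brain, in a line whose founders had met the pyrethroid insecticide permethrin as young fish and in its control line. The 34 names of the set were looked up by symbol, in any letter case, among the 32520 Ensembl gene IDs of the count tables. They gave 36 IDs, because the names for SQLE and ACLY each stood for a pair of IDs. Which ID of a pair is the a and which the b copy was not given. The gene cyp51 was found under CYP51A1, its human spelling. By role, the IDs were 9 genes of the mevalonate pathway, 12 of sterol synthesis, 7 of control and uptake, and 8 of fatty acid synthesis. All 36 passed the low-count filter in each generation.

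Cholesterol is made from acetyl-CoA through the mevalonate pathway, which also supplies the isoprenoid units of other lipids. Its products are joined to squalene, closed to lanosterol and trimmed to cholesterol by a chain of sterol enzymes. The transcription factors SREBF1 and srebf2 are held in the endoplasmic reticulum by SCAP and the INSIG proteins while sterol is plentiful, and are let go when it runs short, which raises transcription of nearly all of these enzymes. In mammals the brain makes its own cholesterol behind the blood-brain barrier, much of it for myelin, and this account is background and no result of these libraries.

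Whole brains of adult fish of the AB line were sequenced as bulk RNA, 1 library per sample, in 48 libraries. Only the founders (F0) of the exposed line had met permethrin, at 10 µg/L, and the F1 and F2 fish descended from them unexposed. The labels define neither PH nor SCA, and here PH was taken to stand for the permethrin lineage and SCA for the controls. Each of the 3 generations held females and males of both lineages, which made 12 groups of 4 libraries. No tank or parentage is labelled for any fish, and p-values therefore speak only of variation among the fish sampled, which may be partly technical.

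Counts in genes ran from 4802827 to 10032850 per library. File names carry a lane code for F0 and F2 and none for F1: all F0 libraries bore L4 except the 4 F0 SCA males, which bore L2, and all F2 libraries bore L3 except F2 PH females 3 and 4, which bore L2. Lineage and lane therefore cannot be told apart in F0 males, nor generation and run between generations. An earlier look at these data set 5 libraries apart, namely F0 SCA female 18, F0 PH male 12, F0 SCA male 6, F2 SCA female 8 and F2 PH male 11, and results that rest on them are also given without them. Of 21 neuron marker IDs none was at 0 in all 4 libraries of any group, and their summed level ran from 12362 to 19598 CPM, against 40.8 to 188 CPM for 12 liver marker IDs. Other lists reached higher sums, with 2218 CPM for eye markers in F0 SCA females and 718 CPM for erythrocyte markers in F1 SCA males. Skeletal muscle markers reached 1450 CPM in F2 SCA females. In F0 males they ran from 161 to 531 CPM in SCA (median 185) and 180 to 214 CPM in PH (median 197). The part of such cells in the results was not tested.

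Levels are CPM, read counts scaled to library size with TMM factors over all 48 libraries, and carry no gene length, so each gene is compared with itself only. F0 SCA males had the highest group mean for 20 of the 36 IDs, F1 PH males for 4, F2 PH females and F2 PH males for 3 each, and no other group for more than 2. The same count was not made over all genes, so it cannot be said whether it is particular to the members. F0 SCA males were also the only group wholly of lane L2. The ratio of the highest to the lowest group mean ran from 1.15 for ACSS2, which makes acetyl-CoA from acetate, to 5.45 for SREBF1. For no ID did all 4 libraries of its highest group lie above every library of all other groups. In whole brain, fewer cells of a type and less RNA per cell cannot be told apart.

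**Figure D1:**
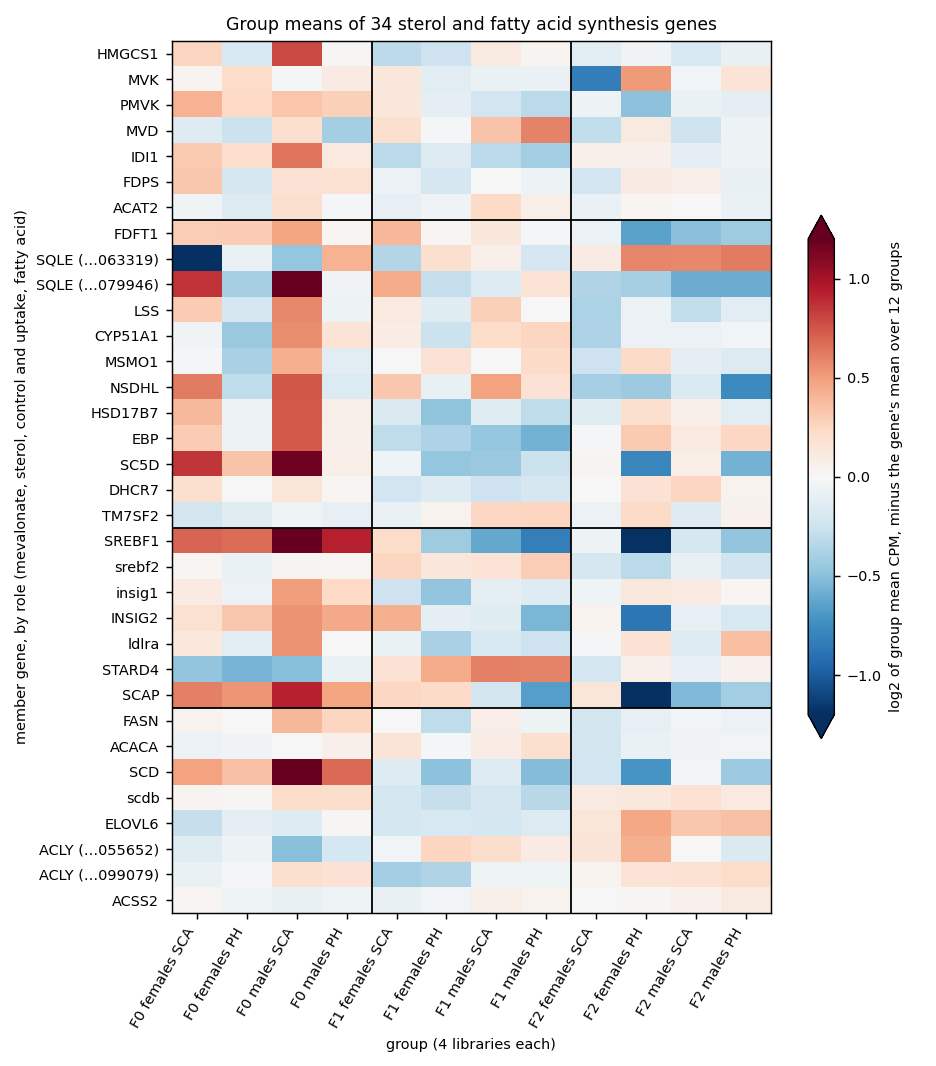
Group means of 34 of the 36 IDs (vertical axis, by role) in the 12 groups (horizontal axis), as the log2 of the group mean CPM minus the gene's mean over groups. F0 SCA males, the only group wholly of lane L2, held the highest mean of 20 of all 36 IDs, and their column is the reddest.

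In founder males 11 of the 21 IDs of the mevalonate and sterol steps were lower in the permethrin lineage at an unadjusted p under 0.05, without any of them passing edgeR's test over all genes. Of the 36 IDs, 28 had a log2 fold change (PH minus SCA) below 0, against 51.9% of all 18081 genes tested, and the median was -0.25 against -0.0099 over all genes. No ID was called at an adjusted p under 0.05 by edgeR's quasi-likelihood test with Benjamini-Hochberg adjustment, and 0.00% of all genes were. At an unadjusted p under 0.05, 11 IDs were lower and none higher, where 2.98% of all genes were lower and 3.08% higher. The 11 were 5 of the 9 mevalonate genes and 6 of the 12 sterol enzymes, and none was a gene of control and uptake or of fatty acid synthesis. By DESeq2 1 ID was called, SC5D (log2 fold change -1.09, adjusted p = 0.0171), among 11 genes called in all.

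HMGCS1, the synthase at the start of the mevalonate pathway, stood at 33.1, 25.4, 32.1 and 30.8 CPM in the 4 PH males and at 48.6, 53.7, 47.8 and 58.6 CPM in the 4 SCA males. Every PH male was below every SCA male, which held below for 11 of the 36 IDs (background 1.60%) and above for 1 (background 1.95%). The log2 fold change was -0.80 ± 0.24 (SE; adjusted p = 0.734) by edgeR's quasi-likelihood test. MVD, which decarboxylates mevalonate diphosphate, had group means of 7.37 ± 1.75 (SD, n = 4) in PH and 11.2 ± 1.1004 CPM in SCA males. IDI1, the isomerase that makes dimethylallyl diphosphate, had 37.4 ± 6.15 and 53.9 ± 5.94 CPM (SD, n = 4). ACAT2, the thiolase that makes acetoacetyl-CoA, had 32.3 ± 1.75 and 37.4 ± 1.98 CPM (SD, n = 4). In each of these 3 genes all PH males lay below all SCA males. MVK, PMVK and FDPS overlapped, with log2 fold changes of 0.074, -0.06 and -0.012.

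Among the sterol enzymes, SC5D, the C5 desaturase late in cholesterol synthesis, stood at 3.64, 8.23, 6.604 and 5.91 CPM in PH males and 12.2, 14.2, 10.8 and 14.9 CPM in SCA males. Its log2 fold change was -1.102 ± 0.23 (SE; adjusted p = 0.556) by edgeR, the smallest p of the set in this comparison. HSD17B7, a 3-ketosteroid reductase of the C4 demethylation, stood at 9.55, 7.61, 6.604 and 8.55 CPM in PH and 12.3, 13.96, 11.9 and 12.97 CPM in SCA males, a log2 fold change of -0.68 ± 0.17 (SE; adjusted p = 0.663) by edgeR. Neither gene's groups overlapped. Squalene epoxidase, which starts the oxygen-dependent part of the route, was read through a pair of IDs. The ID SQLE ENSDARG00000079946 stood at 4.55, 2.46, 4.36 and 5.91 CPM in PH and 13.7, 10.3, 8.76 and 12.6 CPM in SCA males, -1.41 ± 0.41 (SE; adjusted p = 0.734) on the log2 scale by edgeR. The ID SQLE ENSDARG00000063319 lay the other way, at 3.03, 2.21, 2.87 and 3.27 CPM in PH and 1.62, 1.47, 1.44 and 1.64 CPM in SCA males, 0.86 ± 0.45 (SE; adjusted p = 0.849) by edgeR. It was the 1 ID whose PH males all lay above all SCA males, and it held between 2 and 34 reads per library over the whole series. EBP, the sterol isomerase, had 6.47 ± 1.55 CPM (SD, n = 4) in PH and 10.3 ± 1.61 CPM in SCA males. MSMO1, the C4 methyl oxidase, had 30.9 ± 4.09 and 45.2 ± 4.86 CPM, and NSDHL, its partner dehydrogenase, 1.72 ± 0.52 and 3.23 ± 0.494 CPM (SD, n = 4). These 3 did not overlap either, while FDFT1, LSS, CYP51A1, DHCR7 and TM7SF2 did.

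The control and uptake genes overlapped between F0 male groups throughout, with log2 fold changes from -0.54 to 0.41 and a median of -0.28. The sterol sensor partner insig1 was at 80.2, 70.7, 71.1 and 73.2 CPM in PH and 80.9, 101, 93.5 and 78.2 CPM in SCA males. The 8 fatty acid IDs had a median of -0.0097, and 4 of them lay below 0 and 4 above. Without the libraries set apart, 12 IDs were lower at an unadjusted p under 0.05 in F0 males, and none was called. Marker lists moved in these males too, where 51.9% of all genes were below 0 and 2.98% were lower at an unadjusted p under 0.05. Of 14 tested radial glia and astroglia markers 13 were below 0, 5 at that unadjusted p. Their summed level was 4484 to 4828 CPM in PH and 4858 to 5817 CPM in SCA males. Of 17 tested myelin markers 15 were below 0, none at an unadjusted p under 0.05, and their summed level overlapped, at 9512 to 22215 CPM in PH and 15374 to 17292 CPM in SCA males. Vessel and meninges markers were below 0 in 13 of 14 cases, 2 at an unadjusted p under 0.05, with a summed level of 189 to 219 CPM in PH and 204 to 270.1 CPM in SCA males, and epithelium markers in 4 of 4, with 67.1 to 81.3 against 95.8 to 136 CPM. No glia marker was at 0 in all 4 males of either lineage, 1 myelin marker was at 0 in the SCA males, and the part of these cells in the result was not tested. All 4 PH males bore lane L4 and all 4 SCA males L2, so lineage and lane cannot be told apart here. The only other L2 libraries, F2 PH females 3 and 4, stood at 31.4 and 21.4 CPM for HMGCS1, beside 31.1 and 32.8 CPM in F2 PH females 5 and 16 of lane L3. These fish differ from the F0 SCA males in sex, generation and lineage. L2 is a code from file names, so their lane and run need not be those of the F0 SCA males. These fish therefore cannot show what lane did in F0 males, which was not tested.

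**Figure D2:**
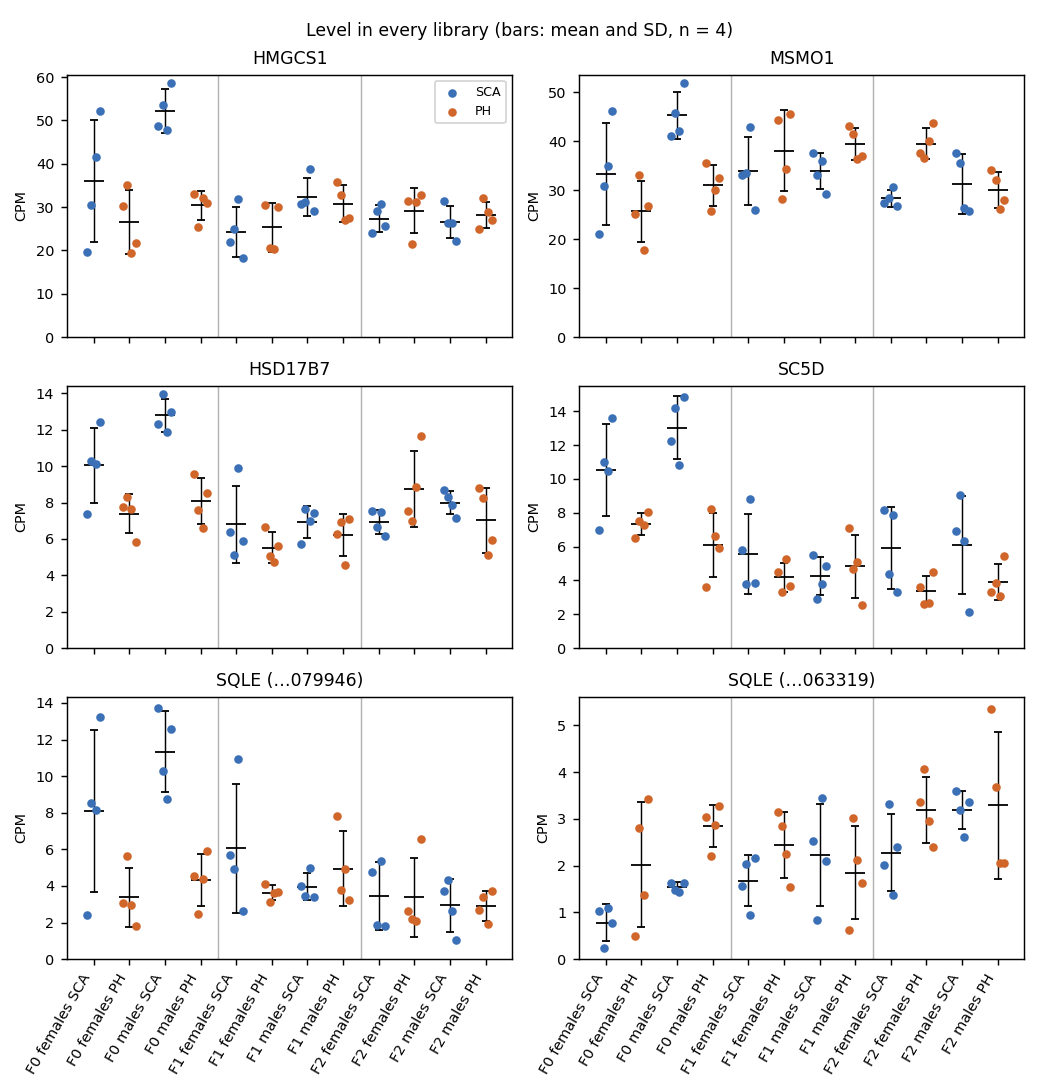
CPM (vertical axis, from 0) in every library of the 12 groups (horizontal axis) for HMGCS1, MSMO1, HSD17B7, SC5D and both SQLE IDs, with bars for the mean and SD of 4 libraries, blue for SCA and orange for PH. In F0 males the PH points lie below the SCA points in 5 panels and above them for SQLE ENSDARG00000063319.

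In founder females, all of lane L4, the same direction was seen with wide overlap. Of the 36 IDs, 27 were below 0 (49.3% of all genes), with a median log2 fold change of -0.12 against 0.0030 over all genes. No ID was called by edgeR or DESeq2 (0.00% of all genes by edgeR), 5 were lower at an unadjusted p under 0.05 (background 2.98%) and 1 higher (background 2.12%). No ID had groups that did not overlap, where 1.57% of all genes lay apart below and 1.97% above. FDPS, which makes farnesyl diphosphate, stood at 31.7, 29.9, 20.2 and 25.2 CPM in PH and 27.9, 35.3, 36.5 and 53.6 CPM in SCA females, -0.53 ± 0.18 (SE; adjusted p = 0.769) by edgeR. HMGCS1 stood at 35.04, 30.3, 19.4 and 21.6 CPM in PH and 19.6, 30.4, 41.6 and 52.2 CPM in SCA females, -0.45 ± 0.24 (SE; adjusted p = 0.994) by edgeR. SCA female 14 lay among the PH females and SCA female 18 above all other females in both genes, and without SCA female 18 FDPS was at -0.33. SQLE ENSDARG00000079946 stood at 5.62, 3.08, 2.97 and 1.83 CPM in PH and 2.42, 8.53, 8.15 and 13.2 CPM in SCA females, -1.27 ± 0.42 (SE; adjusted p = 0.769) by edgeR. SQLE ENSDARG00000063319 stood at 2.81, 0.493, 1.36 and 3.42 CPM in PH and 1.02, 0.234, 1.095 and 0.769 CPM in SCA females, 1.34 ± 0.49 (SE; adjusted p = 0.867) by edgeR. The epoxidase IDs again lay on opposite sides of 0. Log2 fold changes of -0.95 ± 0.38, -0.53 ± 0.23 and -0.46 ± 0.17 (SE) were measured for NSDHL, SC5D and HSD17B7. Of 21 tested eye markers 19 were below 0 in these females, 7 at an unadjusted p under 0.05, with a summed level of 25.7 to 281 CPM in PH and 70.4 to 2218 CPM in SCA females, and their part was not tested. Without SCA female 18 the count of IDs lower at an unadjusted p under 0.05 was 2, and without PH female 9 it was 11, so single fish set it.

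Averaged over both sexes of F0, 15 IDs were lower at an unadjusted p under 0.05 and 1 higher, where 3.82% of all genes were lower and 3.64% higher. None passed edgeR's quasi-likelihood test with Benjamini-Hochberg adjustment (0.00% of all genes called). The smallest adjusted p belonged to SC5D, with -0.82 ± 0.16 (SE; adjusted p = 0.201), followed by HSD17B7 with -0.57 ± 0.12 (SE; adjusted p = 0.222) and SQLE ENSDARG00000079946 with -1.34 ± 0.29 (SE; adjusted p = 0.245). DESeq2 called these 3 IDs, at adjusted p = 0.00194, 0.00985 and 0.00854, among 54 genes called in all. The PH males bore lane L4 and the SCA males L2, so in the males' part of this mean lineage and lane cannot be told apart. Sterol enzymes made up 8 of the 15, with a median of -0.51 over the 12, and mevalonate genes 6, with a median of -0.27 over the 9. The remaining 1 of the 15 was insig1, and no fatty acid gene was among them. The count was 8 without SCA female 18 and 9 without PH female 15. The difference of the lineage contrast between females and males was below an unadjusted p of 0.05 for no ID by edgeR and called for none by edgeR, DESeq2 or limma voom (0.00% of all genes called by edgeR, and 3.20% at that unadjusted p). Of the other genes of these pathways, read against the same backgrounds: of 10 further sterol and isoprenoid genes 3 were lower at an unadjusted p under 0.05 and none higher, of 11 further genes of SREBP control 1 and 0, of 26 genes of sterol transport and LXR response 2 and 0, of 30 further fatty acid genes 5 and 2, and of 26 fatty acid oxidation genes 1 and 0. None of these was called in F0 by edgeR.

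**Figure D3:**
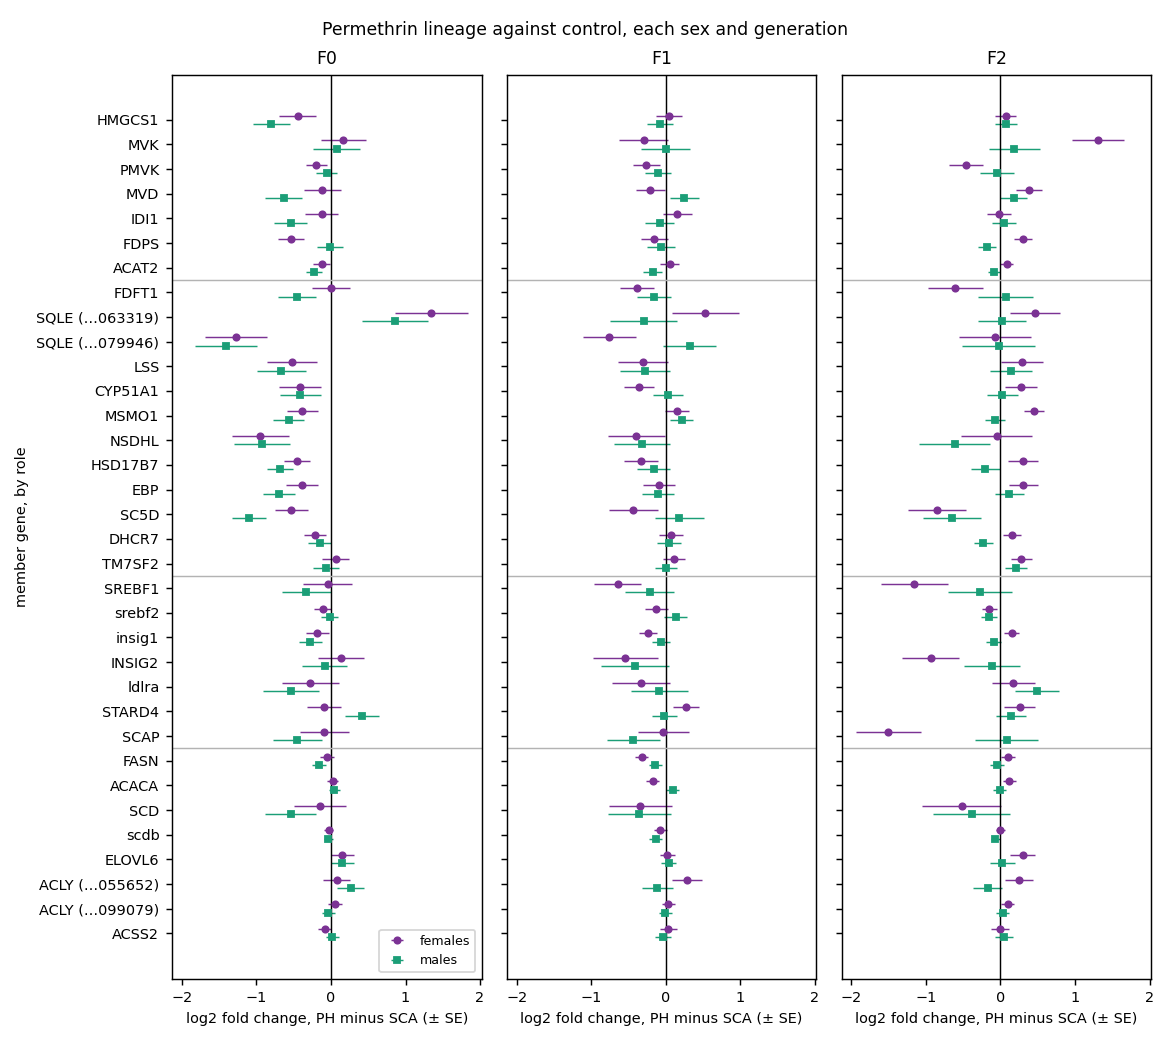
Log2 fold change, PH minus SCA, with its SE (horizontal axis) for 34 of the 36 IDs (vertical axis, by role) in females (circles) and males (squares) of F0, F1 and F2. In F0, 11 of 12 sterol enzymes lie left of 0 in males and 10 in females, and in F2 females MVK lies furthest right at 1.30.

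In unexposed F1 fish the counts of members past an unadjusted p of 0.05 between the lineages of a sex were near or below the shares over all genes. No ID was called in F1 females or males by edgeR, DESeq2 or limma voom, where edgeR called 0.0663% and 0.105% of all 18094 genes. In F1 females 2 IDs were lower at an unadjusted p under 0.05 (background 4.43%) and 0 higher (3.51%), and in F1 males 0 in both directions (5.02% and 3.92%). Their medians were -0.16 and -0.081, against -0.018 and -0.013 over all genes. FASN, the fatty acid synthase, stood at 151, 137, 153 and 143 CPM in PH and 195, 159, 193 and 176 CPM in SCA females of F1, without overlap (background 2.66% of genes apart below). Its log2 fold change was -0.32 ± 0.089 (SE; adjusted p = 0.237) in females, -0.14 ± 0.089 (SE; adjusted p = 0.681) in males and -0.23 ± 0.063 (SE; adjusted p = 0.114) over both sexes by edgeR, and DESeq2 called the last (adjusted p = 0.0299). In males FASN stood at 166, 185, 177 and 165 CPM in PH and 177, 212, 194 and 178 CPM in SCA fish, which overlapped. ACACA, the acetyl-CoA carboxylase that feeds FASN, stood at 111, 122, 121 and 115 CPM in PH and 126, 135, 141 and 125 CPM in SCA females, also apart, -0.18 ± 0.085 (SE; adjusted p = 0.629) by edgeR. It was the other of 2 IDs that lay apart below in F1 females. SQLE ENSDARG00000079946 had -0.76 ± 0.35 (SE; adjusted p = 0.621) in F1 females by edgeR, with PH at 4.12, 3.11, 3.64 and 3.696 CPM and SCA at 5.705, 4.95, 10.9 and 2.61 CPM. SCA female 7 was the highest of the F1 females, and SCA females 4 and 6 also lay above all PH females. Without SCA female 7 this log2 fold change was -0.30 and the median over the 36 IDs -0.026. The other IDs of smallest p in F1 males were scdb, a stearoyl-CoA desaturase, with -0.13 ± 0.09 and MSMO1 with 0.21 ± 0.16 (SE, log2). MSMO1 stood at 43.04, 41.3, 36.4 and 36.9 CPM in PH and 37.5, 36.01, 29.2 and 32.99 CPM in SCA males. Levels of scdb were 334, 378, 399.8 and 347 CPM in PH and 344, 438, 408 and 406 CPM in SCA males. Both genes' groups overlapped. Without SCA male 10 the F1 male log2 fold changes were -0.068 for FASN and -0.071 for scdb, and without PH male 4 scdb was at -0.084. Of the wider fatty acid list, ACSL4 ENSDARG00000004078, an acyl-CoA synthetase for long-chain and arachidonic acids, fell over both sexes of F1 (-0.39 ± 0.080 log2, SE; adjusted p = 0.0312 by edgeR), the 1 called gene of its 28 tested in that comparison (0.680% of all genes called).

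In F2 females the lineages differed in about as large a share of the members as of all genes, and MVK and SCAP passed the test over all genes by some fits and not by others. By edgeR within F2 no ID was called (0.137% of all 17505 genes), and 4 of 36 were higher (background 9.20%) and 4 lower (11.7%) at an unadjusted p under 0.05. By DESeq2 2 were called, MVK (adjusted p = 0.0371) and SCAP (adjusted p = 0.0407), and edgeR fitted to all 48 libraries called the same 2 (adjusted p = 0.0438 and 0.0497). The 0.137% is the share of the main fit only. Of all genes, the alternative settings called between 0 and 543 here, and the fits leaving out 1 library between 3 and 1251. MVK, mevalonate kinase, stood at 3.91, 4.802, 6.22 and 4.79 CPM in PH and 1.13, 1.99, 2.87 and 1.81 CPM in SCA females, 1.303 ± 0.35 (SE; adjusted p = 0.123) by edgeR. The groups did not overlap, which held above for 4 IDs (background 5.92%) and below for 0 (3.25%). MSMO1 was among the 4, at 37.6, 36.5, 39.96 and 43.7 CPM in PH and 27.4, 28.3, 30.7 and 26.8 CPM in SCA females, 0.45 ± 0.13 (SE; adjusted p = 0.132) by edgeR. FDPS stood at 35.2, 32.3, 34.8 and 29.5 and 27.1, 26.9, 26.8 and 24.1 CPM, and MVD was the last of the 4 with means of 10.5 ± 0.493 and 7.92 ± 1.94 CPM (SD, n = 4). SCAP, which escorts SREBPs to the Golgi, stood at 1.96, 1.31, 3.11 and 2.24 CPM in PH and 9.15, 5.32, 7.11 and 2.41 CPM in SCA females, -1.51 ± 0.44 (SE; adjusted p = 0.132) by edgeR. SREBF1, the SREBP that favours fatty acid genes, stood at 2.93, 2.62, 2.22 and 2.84 CPM in PH and 7.77, 2.79, 9.48 and 3.16 CPM in SCA females, -1.16 ± 0.45 (SE; adjusted p = 0.171) by edgeR. Without SCA female 9 edgeR called SCAP (-1.76, adjusted p = 0.039). SCA females 4 and 8 were high in both genes, SCA female 6 was above all PH females for SCAP alone, and SCA female 9 was above them, slightly, for SREBF1 alone. SCA females 4 and 8 were also low in ribosomal protein transcripts: the summed level of 75 ribosomal protein genes ran from 12714 to 19967 CPM in SCA and 18595 to 20821 CPM in PH females, and its part in the result was not tested. SCA female 8 was one of the libraries set apart, and without it SCAP was -1.41 (adjusted p = 0.307 by edgeR) and MVK 1.56 (adjusted p = 0.1). Without PH females 3 and 4 of lane L2, MVK was 1.46 (adjusted p = 0.329), MSMO1 0.54 (adjusted p = 0.335) and SCAP -1.19 (adjusted p = 0.359) by edgeR. All 12 tested skeletal muscle markers were below 0 in F2 females (background 47.3%), 8 at an unadjusted p under 0.05 (background 11.7%). Their summed level was 171 to 190.2 CPM in PH and 195 to 1450 CPM in SCA females. No muscle marker was at 0 in all 4 females of either group, and the part of these markers was not tested.

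In F2 males no ID was below an unadjusted p of 0.05 (background 8.81%), none was called by edgeR, DESeq2 or limma voom (0.0171% of all genes by edgeR), and the median was -0.016. DHCR7, the last reductase of cholesterol synthesis, stood at 16.1, 19.4, 15.6 and 20.4 CPM in PH and 18.5, 18.6, 23.6 and 22.7 CPM in SCA males. SC5D stood at 3.07, 5.42, 3.31 and 3.82 CPM in PH and 6.898, 9.05, 6.34 and 2.14 CPM in SCA males. The LDL receptor gene ldlra, which takes cholesterol up, stood at 2.05, 2.32, 2.68 and 3.09 CPM in PH and 2.21, 2.17, 1.65 and 1.07 CPM in SCA males. Their log2 fold changes were -0.23 ± 0.12, -0.66 ± 0.39 and 0.49 ± 0.29 (SE), the smallest p values of the set there, and the groups overlapped in each. Without SCA male 5 SC5D was at -0.40, and without SCA male 10 ldlra was at 0.31. Averaged over both sexes of F2, no ID was called by edgeR or DESeq2 (0.691% of all genes higher and 0.411% lower by edgeR), with 3 higher (background 11.4%) and 3 lower (12.3%) at an unadjusted p under 0.05. Outside the 36 IDs, mid1ip1l, a relative of the factor that promotes ACACA polymerisation in mammals, rose in F2 females (0.48 ± 0.087 log2, SE; adjusted p = 0.0475 by edgeR) and over both sexes (0.36 ± 0.062; adjusted p = 0.0117). It was the 1 called gene of 28 tested in the wider fatty acid list in both comparisons. A joint test asked whether the lineage contrast itself changed over F0, F1 and F2. By edgeR no ID was called in females (0.178% of all 19062 genes) or males (0.210%), and 8 and 6 IDs were below an unadjusted p of 0.05 (backgrounds 11.4% and 9.26%). DESeq2 and limma voom also called none in either sex. The smallest adjusted p was 0.252 for FDPS in females and 0.305 for HMGCS1 in males.

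Between the sexes, the share of members called was near that of all genes, and the few calls did not hold in every fit. In F0, over both lineages, FASN and scdb fell in females by edgeR, 2 of 36 IDs (4.85% of all genes called, 2.84% lower). FASN stood at 165 to 219.8 CPM (median 174) in 8 females and 202 to 251 (median 232) in 8 males, -0.28 ± 0.068 (SE; adjusted p = 0.0251) on the log2 scale. The desaturase gene scdb stood at 416 to 498 CPM (median 468) in 8 females and 502 to 558 (median 536) in 8 males, -0.17 ± 0.043 (SE; adjusted p = 0.0331) by edgeR, and here the sexes did not overlap (background 0.890%). The 4 SCA males ran on another lane than the females; within PH fish, all of lane L4, the differences were -0.23 for FASN (adjusted p = 0.444) and -0.17 for scdb (adjusted p = 0.344) by edgeR. Leaving out 1 fish ended the call in 8 of 16 fits for FASN and in 11 of 16 for scdb. Of 17 tested myelin markers 9 were also called lower in F0 females by edgeR, and their part was not tested. In F1 2 of 36 IDs were called, both lower in females (3.45% of all genes called, 1.48% lower), and ACLY ENSDARG00000099079, a copy of ATP citrate lyase, the source of cytosolic acetyl-CoA, was among them. ACLY ENSDARG00000099079 stood at 92.6 to 113 CPM (median 100.3) in 8 females and 116 to 141 (median 129) in 8 males, which did not overlap (background 0.221%), -0.32 ± 0.063 (SE; adjusted p = 0.0169) by edgeR. Within either lineage alone no ID was called in F0 or F1, and leaving out single fish gave between 0 and 5 called IDs in F0 and between 1 and 2 in F1. Of all genes, the fits leaving out single fish called 533 to 1076 in F0 and 158 to 1168 in F1. In F2 edgeR called no ID (0.114% of all genes), with 1 higher (background 4.24%) and none lower (4.87%) at an unadjusted p under 0.05, and DESeq2 called none.

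More members, and likewise more of all genes, were called between generations than between lineages. Generations were compared in SCA fish, 8 per generation, in 1 fit over all libraries, whereas a lineage contrast within a sex had 4 fish per group. From F0 to F2, 19 of 36 IDs were called by edgeR's quasi-likelihood test with Benjamini-Hochberg adjustment, 17 lower and 2 higher, against 10.8% of all 19062 genes, 4.40% lower and 6.36% higher. By role these were 9 of 12 sterol enzymes, 4 of 9 mevalonate genes, 3 of 7 control and uptake genes and 3 of 8 fatty acid IDs, and the median over all 36 was -0.38 against 0.0068 over all genes. From F0 to F1, 21 IDs were called, 16 lower and 5 higher, where 43.0% of all genes were called, 21.4% lower and 21.6% higher. From F1 to F2 12 IDs were called, 7 lower and 5 higher, where 29.1% of all genes were, 14.7% lower and 14.4% higher. No ID had F2 fish all below or all above the F0 fish (backgrounds 0.241% and 0.698%), and from F0 to F1 this held below for EBP and scdb (4.54%) and above for STARD4 (4.61%). The F0 SCA fish of these contrasts are the control fish of the F0 lineage contrast, so these are not separate findings about F0.

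Of the mevalonate genes, HMGCS1 ran from 19.6 to 58.6 CPM in F0 (median 48.2), 18.2 to 38.9 in F1 (median 29.8) and 22.1 to 31.3 in F2 (median 26.3). The log2 differences by edgeR were F1 minus F0 -0.63 ± 0.14 (SE; adjusted p = 0.000424) and F2 minus F0 -0.68 ± 0.14 (SE; adjusted p = 0.00173). The F0 range was the widest, from SCA female 14 to SCA male 17. IDI1 ran from 29.8 to 62.5 CPM in F0 (median 50.3), 21.3 to 39.2 in F1 (median 25.6) and 29.6 to 42.7 in F2 (median 32.6). It fell from F0 to F1 (-0.80 ± 0.14, SE, adjusted p = 1.64e-05) and was lower in F2 than F0 (-0.51 ± 0.14, SE, adjusted p = 0.0181) by edgeR. PMVK, phosphomevalonate kinase, ran from 13.4 to 17.5 CPM in F0 (median 14.8), 7.76 to 15.2 in F1 (median 10.97) and 7.02 to 14.4 in F2 (median 11.1). It fell from F0 to F1 (-0.42 ± 0.12, SE, adjusted p = 0.00592) and was below F0 in F2 (-0.44 ± 0.12, SE, adjusted p = 0.0198) by edgeR. IDI1 and PMVK had their lowest median in F1. FDPS ran from 27.9 to 53.6 CPM in F0 (median 35.7), 23.4 to 38.3 in F1 (median 28.4) and 24.1 to 40.4 in F2 (median 27.3). MVD ran from 4.97 to 13.7 CPM in F0 (median 10.5), 9.31 to 16.1 in F1 (median 11.6) and 5.51 to 9.63 in F2 (median 8.504). FDPS fell from F0 to F1 (-0.28 ± 0.12, SE, adjusted p = 0.0486) and MVD from F1 to F2 (-0.54 ± 0.15, SE, adjusted p = 0.00582) by edgeR, while MVK and ACAT2 were called in none of the 3 contrasts. Leaving out 1 of the 24 SCA fish ended the call of FDPS in 8 fits. The F0 to F2 call ended for IDI1 without F0 SCA female 18, F2 SCA female 9 or F2 SCA male 10, and for PMVK without F2 SCA female 6, F2 SCA female 9 or F2 SCA male 10.

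In the sterol branch the epoxidase copies changed in opposite directions in SCA fish. SQLE ENSDARG00000079946 ran from 2.42 to 13.7 CPM in F0 (median 9.53), 2.61 to 10.9 in F1 (median 4.48) and 1.07 to 5.37 in F2 (median 3.17). SQLE ENSDARG00000063319 ran from 0.234 to 1.64 CPM in F0 (median 1.27), 0.832 to 3.45 in F1 (median 2.06) and 1.37 to 3.59 in F2 (median 2.904). From F0 to F2 the first fell (-1.57 ± 0.31, SE, adjusted p = 0.000985) and the second rose (1.29 ± 0.31, SE, adjusted p = 0.00837) by edgeR, and so they did from F0 to F1, with -0.96 ± 0.30 (SE; adjusted p = 0.00815) and 0.81 ± 0.32 (SE; adjusted p = 0.0368). SC5D ran from 7.01 to 14.9 CPM in F0 (median 11.6), 2.91 to 8.84 in F1 (median 4.35) and 2.14 to 9.05 in F2 (median 6.62). HSD17B7 ran from 7.39 to 13.96 CPM in F0 (median 12.1), 5.09 to 9.89 in F1 (median 6.69) and 6.17 to 8.69 in F2 (median 7.503). EBP ran from 6.81 to 11.9 CPM in F0 (median 8.57), 3.604 to 6.52 in F1 (median 4.68) and 5.14 to 8.001 in F2 (median 6.43). All 3 had their highest median in F0 and their lowest in F1. All 3 were lower in F2 than in F0 by edgeR, with -0.95 ± 0.22 (SE; adjusted p = 0.0059) for SC5D, -0.60 ± 0.13 (SE; adjusted p = 0.00353) for HSD17B7 and -0.47 ± 0.14 (SE; adjusted p = 0.0234) for EBP. They were already lower in F1, with -1.25 ± 0.23 (SE; adjusted p = 2.26e-05), -0.72 ± 0.13 (SE; adjusted p = 3.54e-05) and -0.90 ± 0.14 (SE; adjusted p = 1.51e-06) in the same order, and EBP rose again from F1 to F2 (0.43 ± 0.14, SE, adjusted p = 0.016). FDFT1, squalene synthase, ran from 4.33 to 7.85 CPM in F0 (median 6.899), 3.604 to 8.84 in F1 (median 5.99) and 1.96 to 7.11 in F2 (median 3.72). LSS, which closes the sterol rings, ran from 2.29 to 7.31 CPM in F0 (median 4.49), 2.04 to 6.63 in F1 (median 3.79) and 1.88 to 4.001 in F2 (median 2.69). MSMO1 ran from 21.02 to 51.9 CPM in F0 (median 41.6), 25.9 to 42.8 in F1 (median 33.3) and 25.8 to 37.5 in F2 (median 27.9). Their medians stepped down from F0 through F1 to F2. From F0 to F2 FDFT1 fell (-0.66 ± 0.20, SE, adjusted p = 0.0301), as did LSS (-0.78 ± 0.23, SE, adjusted p = 0.0234) and MSMO1 (-0.38 ± 0.12, SE, adjusted p = 0.0407) by edgeR. NSDHL fell likewise (-0.97 ± 0.29, SE, adjusted p = 0.0268). NSDHL ran from 1.15 to 4.104 CPM in F0 (median 3.03), 1.25 to 3.47 in F1 (median 2.94) and 0.501 to 2.11 in F2 (median 1.76). FDFT1 also fell from F1 to F2 (-0.55 ± 0.20, SE, adjusted p = 0.0353). DHCR7 ran from 17.4 to 22.4 CPM in F0 (median 19.7), 11.4 to 18.6 in F1 (median 14.5) and 16.5 to 23.6 in F2 (median 18.6). It fell from F0 to F1 (-0.41 ± 0.10, SE, adjusted p = 0.00111) and rose from F1 to F2 (0.37 ± 0.10, SE, adjusted p = 0.00445) by edgeR, while CYP51A1, the lanosterol demethylase, and TM7SF2, a C14 sterol reductase, were called in none of the 3 contrasts. Of the 24 fits that each left out 1 SCA fish, the F0 to F2 call ended in 10 for MSMO1, 8 for FDFT1, 4 for NSDHL, and 3 each for LSS and EBP. The F1 to F2 call of FDFT1 ended in 9, and the F0 to F1 call of SQLE ENSDARG00000063319 in 9.

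Among the genes of control and uptake, SREBF1 ran from 6.24 to 18.7 CPM in F0 (median 11.7), 2.08 to 9.68 in F1 (median 5.21) and 2.79 to 9.48 in F2 (median 4.41). SCAP ran from 4.97 to 11.5 CPM in F0 (median 9.64), 2.22 to 8.84 in F1 (median 5.81) and 1.53 to 9.15 in F2 (median 4.59). insig1 ran from 52.9 to 101 CPM in F0 (median 79.5), 42.4 to 67.1 in F1 (median 54.8) and 54.6 to 69.7 in F2 (median 64.6). SREBF1 and SCAP had their lowest median in F2 and insig1 in F1. All 3 fell from F0 to F1 by edgeR, with -1.17 ± 0.26 (SE; adjusted p = 0.000454) for SREBF1, -0.74 ± 0.26 (SE; adjusted p = 0.0207) for SCAP and -0.48 ± 0.09 (SE; adjusted p = 5.04e-05) for insig1. In F2 they were still below F0, with -1.104 ± 0.26 (SE; adjusted p = 0.00671), -0.94 ± 0.27 (SE; adjusted p = 0.0202) and -0.27 ± 0.09 (SE; adjusted p = 0.0453) in the same order. srebf2, which favours cholesterol genes, ran from 91.7 to 115 CPM in F0 (median 106), 99.96 to 155 in F1 (median 112) and 80.7 to 110.4 in F2 (median 92.4). It was called only between F1 and F2, at -0.35 ± 0.091 (SE; adjusted p = 0.00252) on the log2 scale. STARD4, a cytosolic sterol carrier, ran from 8.76 to 16.2 CPM in F0 (median 12.98), 19.2 to 33.99 in F1 (median 22.9) and 10.5 to 24.7 in F2 (median 15.8). It rose from F0 to F1 (0.88 ± 0.15, SE, adjusted p = 1.2e-05) and fell from F1 to F2 (-0.55 ± 0.15, SE, adjusted p = 0.00459) by edgeR; INSIG2 and ldlra were called in none of the 3 contrasts. Of the 24 fits that each left out 1 SCA fish, the F0 to F2 call ended in 15 for insig1 and 3 for SCAP, and SCAP's F0 to F1 call ended without F1 SCA male 14.

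Fatty acid genes took several courses. FASN ran from 165 to 251 CPM in F0 (median 225), 159 to 212 in F1 (median 185) and 141 to 185 in F2 (median 164). It fell from F0 to F1 (-0.18 ± 0.062, SE, adjusted p = 0.0163), from F1 to F2 (-0.17 ± 0.062, SE, adjusted p = 0.0374) and over the whole span (-0.35 ± 0.062, SE, adjusted p = 0.000279) by edgeR. scdb ran from 459 to 558 CPM in F0 (median 492), 344 to 438 in F1 (median 407) and 482 to 548 in F2 (median 496). This desaturase fell in F1 (-0.33 ± 0.045, SE, adjusted p = 1.6e-07) and rose in F2 (0.35 ± 0.045, SE, adjusted p = 6.85e-08). SCD, its sparsely read relative, ran from 2.04 to 6.61 CPM in F0 (median 3.69), 0.909 to 2.95 in F1 (median 1.95) and 0.451 to 3.38 in F2 (median 2.07). It fell in F1 (-1.0004 ± 0.30, SE, adjusted p = 0.0065) and was below F0 in F2 (-0.97 ± 0.30, SE, adjusted p = 0.0338). ELOVL6, which lengthens palmitate, ran from 67.2 to 90.05 CPM in F0 (median 81.9), 72.2 to 90.3 in F1 (median 80.2) and 81.98 to 137 in F2 (median 119). It rose from F1 to F2 (0.45 ± 0.11, SE, adjusted p = 0.0013), with 0.45 ± 0.11 (SE; adjusted p = 0.00673) against F0. ACACA ran from 103 to 126 CPM in F0 (median 118), 117 to 141 in F1 (median 128) and 98.3 to 125 in F2 (median 104). ACACA rose from F0 to F1 (0.16 ± 0.054, SE, adjusted p = 0.0139) and fell from F1 to F2 (-0.25 ± 0.054, SE, adjusted p = 0.000275) by edgeR. Its course was the reverse of that of scdb. ACLY ENSDARG00000099079 ran from 121 to 159.7 CPM in F0 (median 136), 92.6 to 141 in F1 (median 114) and 127 to 158 in F2 (median 146). ACLY ENSDARG00000055652 ran from 5.98 to 10.9 CPM in F0 (median 9.82), 9.82 to 20.7 in F1 (median 10.8) and 8.93 to 15.9 in F2 (median 10.4). ACLY ENSDARG00000099079 fell in F1 (-0.28 ± 0.062, SE, adjusted p = 0.00035) and rose in F2 (0.34 ± 0.062, SE, adjusted p = 3.46e-05), whereas ACLY ENSDARG00000055652 rose from F0 to F1 (0.41 ± 0.14, SE, adjusted p = 0.0161), and ACSS2 was called in none of the 3 contrasts. The F1 to F2 call of FASN ended in 18 of the 24 fits that each left out 1 SCA fish and in 5 of 7 other settings, and its F0 to F1 call without F0 SCA female 18. The F0 to F2 call of SCD ended in 11 of these fits and the F0 to F1 call of ACACA in 4. That of ACLY ENSDARG00000055652 ended without F0 SCA male 2 and without F1 SCA male 14, where its value was 0.25.

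In PH fish, an alternative chosen after values were seen, the F0 to F2 difference looked otherwise. Of the 36 IDs 10 were called, 9 lower and 1 higher, where 32.3% of all genes were called, 17.2% lower and 15.1% higher, and the median was 0.016. HMGCS1 ran from 19.4 to 35.04 CPM in F0 (median 30.6), 20.3 to 35.9 in F1 (median 28.6) and 21.4 to 32.8 in F2 (median 29.9) in PH fish, 0.015 ± 0.14 (SE; adjusted p = 0.95) from F0 to F2 by edgeR. SQLE ENSDARG00000079946 had -0.28 ± 0.32 (SE; adjusted p = 0.539), HSD17B7 0.022 ± 0.14 (SE; adjusted p = 0.92), and SC5D, 1 of the 10 called, -0.88 ± 0.24 (SE; adjusted p = 0.00397) by edgeR. SREBF1 and SCAP fell in PH fish as well, with -1.63 ± 0.28 (SE; adjusted p = 0.000115) and -1.38 ± 0.28 (SE; adjusted p = 0.000391) by edgeR. FASN also fell (-0.22 ± 0.062, SE, adjusted p = 0.0072) and ELOVL6 rose (0.46 ± 0.11, SE, adjusted p = 0.00132). The remaining 5 of the 10 were PMVK, FDFT1, srebf2, INSIG2 and SCD, all lower in F2. The joint test given above, within each sex and over all 3 generations, called no ID. It takes in F1 and has 4 fish per group. Whether the F0 to F2 change over both sexes differed between lineages was therefore not itself tested. In SCA females alone, whose F0 libraries bore L4, no ID was called from F0 to F2 by edgeR (1.47% of all genes), 29 of 36 were below 0 and the median was -0.24, with 4 fish per generation. The share of all genes below 0 and their median were not taken for SCA females alone. In SCA fish of both sexes, leaving out 1 fish gave between 8 and 21 called IDs from F0 to F2. The lowest counts came without F2 SCA male 10 (8), F2 SCA female 9 (11), and F0 SCA females 15 and 18 (12 each). Of all genes, these fits called between 895 and 3594. Without the libraries set apart 14 IDs were called. The 7 alternative settings, this one among them, called between 281 and 6161 of all genes from F0 to F2. The 14 is therefore not read as particular to the members. Ribosomal protein transcripts moved with generation too: the group medians of their mean log2 level, relative to all libraries, were -0.28 and -0.45 in F0 SCA females and males, 0.17 and 0.30 in F1, and -0.033 and -0.022 in F2. All 17 tested myelin markers were lower in F2 than F0 SCA fish, as were 49.0% of all genes. Of these markers 4 were called lower by edgeR, where 4.40% of all genes were. Their summed level was 7455 to 17292 CPM in F0 and 7580 to 16747 CPM in F2. Generation, run and lane cannot be told apart, and the part of these markers was not tested.

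**Figure D4:**
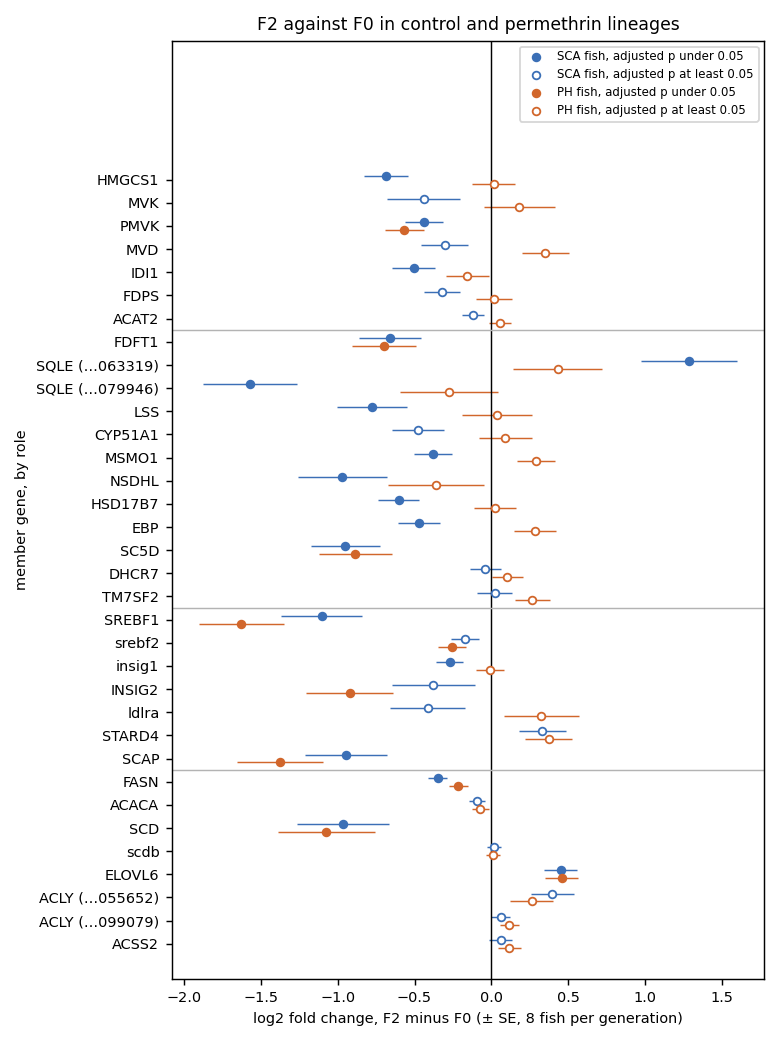
Log2 fold change, F2 minus F0, with its SE (horizontal axis) for 34 of the 36 IDs (vertical axis, by role) in SCA fish (blue) and PH fish (orange), filled where the adjusted p was under 0.05. Among the plotted mevalonate genes and sterol enzymes the blue points lie further left than the orange for all but PMVK, FDFT1 and SQLE ENSDARG00000063319.

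Across single fish the members varied together to unequal degrees. Deviations of log2 CPM from the group mean were taken in all 48 libraries, and correlations are given as a description. Libraries of a generation may share a run. Within a group, lane codes differed only in F2 PH females (L2 and L3), and F1 files carry none. Depth differed within groups of F1, with 4802827 to 10032850 counts in F1 PH females. The median Pearson r was 0.26 over the 210 pairs of mevalonate and sterol IDs, with a range from -0.53 (FDFT1 with TM7SF2) to 0.84, and 0.16 over all 630 pairs of members and 0.067 over the 28 pairs of fatty acid IDs, against -0.0010 over all pairs of tested genes. HMGCS1 and MSMO1 were the pair of highest r (Spearman's rho 0.78), with 0.92 in F0, 0.90 in F1 and 0.49 in F2 at 16 fish each, and 0.77 without the 2 fish farthest in HMGCS1. HMGCS1 went with SQLE ENSDARG00000079946 at r = 0.67 (rho 0.60) and with SQLE ENSDARG00000063319 at r = -0.13 (rho -0.072). The copy of higher r was the one that lay lower in PH than in SCA males of F0. The feedback gene insig1, itself an SREBP target in mammals, went with HMGCS1 at r = 0.70 (rho 0.61), and srebf2 at r = 0.40 (rho 0.33). SREBF1 stood apart from HMGCS1 (r = -0.083, rho -0.16) and went with SCAP at r = 0.71 (rho 0.69), FDFT1 at 0.79 (rho 0.77) and INSIG2 at 0.70 (rho 0.68). Its r with ELOVL6, -0.75 (rho -0.70), was the lowest of all 630 pairs. With the other fatty acid IDs it had r = -0.63 for ACLY ENSDARG00000055652, -0.55 for ACLY ENSDARG00000099079, -0.33 for ACSS2 and -0.28 for scdb. For ACACA, FASN and SCD it had r = 0.21, 0.42 and 0.47. SREBF1 also went against the mean of 75 ribosomal protein genes, at r = -0.60 (rho -0.52) in all 48 fish, -0.812 in F0, -0.0725 in F1 and -0.785 in F2. PMVK had r = -0.75 (rho -0.75) with it, at -0.676 in F0, -0.726 in F1 and -0.826 in F2. ELOVL6 had r = 0.70 (rho 0.61), at 0.915 in F0 and 0.926 in F2 but -0.144 in F1, and HMGCS1 r = 0.028 (rho 0.012). These relations were picked after their values were seen, over all pairs of members, and what the ribosomal protein level stands for was not tested.

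**Figure D5:**
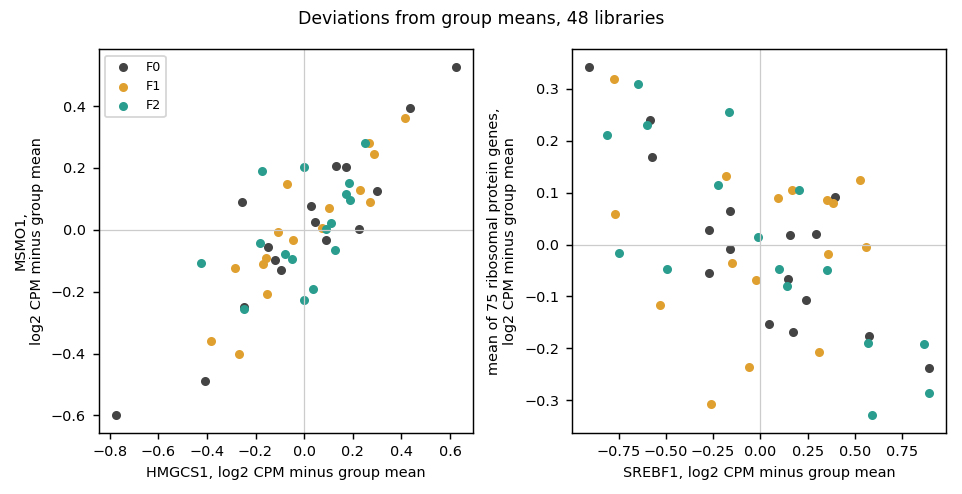
Each point is 1 library, coloured by generation, as log2 CPM minus its group mean for HMGCS1 (horizontal axis) against MSMO1, and for SREBF1 against the mean of 75 ribosomal protein genes. The first panel rises (r = 0.84) and the second falls (r = -0.60).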

How the data were processed

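The authors' deposited files hold raw read counts, 1 file per library, for 32520 Ensembl IDs and 5 summary lines, which were kept out of sizes and tests. Reads over no annotated feature took 60.3 to 65.4% of a file's total, ambiguous reads 0.306 to 0.602% and non-unique reads 2.40 to 3.12%. The submitters' processing notes name STAR 2.7, HTSeq 0.11.2, DESeq2 1.24.0 and the build GRCz11 (danRer11). Strand setting and annotation release were not given in the sources used here. Overlapping and antisense genes therefore cannot be told apart, and near-identical copies may share or lose reads.

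A reference name table gave symbols for 29201 IDs. Group means were fitted by edgeR 4.0.16 (R 4.3.3; filterByExpr, TMM, glmQLFit and glmQLFTest) to the 16 libraries of a generation, on 18081, 18094 and 17505 genes. The joint and generation tests used all 48 libraries and 19062 genes. Calls needed an adjusted p (Benjamini-Hochberg) under 0.05. An SE is the log2 fold change divided by the root of its F statistic. Correlations used log2 CPM with a prior count of 2. No replicate pair agreed within counting noise (lowest chi-square per degree of freedom 4.44). The fit was tested on simulated data. Alternatives were RLE factors, no low-count filter, DESeq2 1.42.0, voom of limma 3.58.1, other library sets, a replicate block and leaving out each library. Members, lists, alternatives and the 5 libraries set apart were chosen with earlier results of these data known. Called members and the 3 of smallest p in each lineage contrast are named with their values, other members by counts and ranges. The results of 1 member gene stand in the counts and are not reported here.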

Additional observations from a re-analysis of the deposited data

How the results depend on the processing

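Over the named members, leaving out 1 library kept direction and side of the threshold in 1449 values, ended the call in 150 and gave 1 new call, and the other alternatives did so in 424, 78 and 5. DESeq2 called 1 ID in F0 males, 3 over both sexes of F0, 5 between the sexes of F0, 1 over both sexes of F1 and 2 in F2 females, and the fit of all 48 libraries also called 2 in F2 females. Of all genes, DESeq2 called 11 in F0 males and 54 over both sexes of F0. Its counts over all genes in the other contrasts are not given here. Its 5, 1 and 2 IDs there are therefore not read against a share. The alternative settings called 13 to 1386 of all genes between the sexes of F0 and 4 to 1466 between those of F1. They called 104 to 378 over both sexes of F1 and 0 to 543 in F2 females. Without a low-count filter 1 ID was called between the sexes of F0, and limma voom called 1 between those of F1. Within PH or SCA fish alone 0 were called between the sexes in either generation. Without the libraries set apart 1 ID was called between the sexes of F0, and 1 was lower at an unadjusted p under 0.05 in F0 females. A replicate block on the numbers 15 and 16, shared by F0 females (correlations of deviations 0.119 and 0.12), gave 10 lower IDs and 0 called. Only 2 numbers are shared, so this was not taken as pairing. SCA females alone gave 11 called IDs for F1 against F0, 0 for F2 against F0 (median -0.24) and 5 for F2 against F1. In the same order, these contrasts called 3248, 281 and 2603 of all 19062 genes, against which the counts of IDs are to be read. PH fish gave 10 for F2 against F0 (median 0.016, 32.3% of all genes called). In PH fish the direction turned for SQLE ENSDARG00000063319 (-0.18) and SQLE ENSDARG00000079946 (0.15) from F0 to F1, for HMGCS1 (0.015), LSS (0.035), MSMO1 (0.29), HSD17B7 (0.022) and EBP (0.28) from F0 to F2, and for FASN (0.096) from F1 to F2. Leaving out 1 library gave 2 to 11 lower IDs in F0 females and 8 to 15 over both sexes of F0. Called IDs then ran from 0 to 5 between the sexes of F0 and 1 to 2 in F1, from 0 to 1 in F2 females (SCAP, without SCA female 9) and over both sexes of F2 (SC5D, without SCA male 10), and from 8 to 21 for F2 against F0. Of all genes, the same fits called 533 to 1076 between the sexes of F0 and 158 to 1168 in F1. They called 3 to 1251 in F2 females, 78 to 1192 over both sexes of F2 and 895 to 3594 for F2 against F0. The median ran from -0.20 to -0.026 in F1 females and from -0.15 to 0.063 for the sex difference of the F1 contrast. The causes were not tested. SQLE ENSDARG00000063319, NSDHL, INSIG2 and SCD held as few as 2 or 3 reads in a library, which limits their precision. Low counts also limit SQLE ENSDARG00000079946 and ldlra, with as few as 7 reads, and MVK and SCAP, with as few as 9.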
